A study of Mus musculus with 12 samples.

Results

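The mitochondrial solute carriers were taken as every gene whose symbol starts with Slc25a followed by a digit, together with Ucp1, Ucp2 and Ucp3, that had a microarray probe named for that gene alone. Of the 18069 genes with such a probe 45 were carriers, measured by 54 of the 36227 probes on the array, and a carrier with several probes was read from the one whose log2 values averaged highest. The rule used the gene names and no measured difference, but it was set with earlier results of these data known. Slc25a36, Slc25a41, Slc25a54 and Ucp2 are also in the RefSeq annotation but had no probe named for them alone and were not analysed here. Whole ovaries came from 12 female mice, 1 array per mouse, which formed 4 groups of 3: lethal yellow (LY) mice of 180 days, black mice of 180 days, LY mice of 90 days and black mice of 90 days. LY mice carry Ay/a and become obese with age, black mice are their lean a/a counterparts, and the labels write the shared strain as C56BL/6J. The mice of all 4 groups had received Antide, a GnRH antagonist that suppresses gonadotropin release, at 10 μg/g body weight on days 1 and 4. Equine chorionic gonadotropin (eCG), which drives follicles to grow, was given to all of them at 1 IU/5 g body weight, and the ovaries were collected on day 7, 36 h after eCG.

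Carriers of the SLC25 family sit, with few exceptions, in the inner mitochondrial membrane and exchange metabolites, nucleotides, cofactors and ions between the matrix and the cytosol. In a steroid-producing tissue such as the ovary they stand beside cholesterol side-chain cleavage, which takes place on the same membrane, and the citrate they export is a source of cytosolic acetyl-CoA for fatty acid and cholesterol synthesis. The uncoupling proteins belong to the same family, and Ucp1, which lets protons leak back to produce heat, is a marker of brown fat.

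The values were relative intensity units with the median of each array set to 1, and 0.2 units was the limit of sensitivity. Of the 45 carriers 43 reached a mean of 0.2 units in at least 1 group and were tested, while Slc25a42 and Ucp1 did not. Between 80.8 and 83.3% of the probes of an array lay at or above that limit. Arrays of the same group had correlations of 0.970 to 0.987, LY and black arrays of the same age 0.962 to 0.984, and 180-day and 90-day arrays 0.918 to 0.938. The agouti gene, which the Ay allele switches on in all tissues, averaged 103 ± 7.36 units in LY mice and 0.294 ± 0.109 units in black mice at 180 days, and 97.2 ± 1.79 units in LY mice and 0.295 ± 0.0165 units in black mice at 90 days (SD, n = 3 each), so the genotypes were as labelled. RNA of a whole ovary mixes granulosa, theca, oocyte, stromal and other cells, and fewer cells of a type cannot be told apart from less RNA per cell. Arrays of 180-day and 90-day mice were not hybridized together, and any shift between these 2 sets of arrays cannot be told apart from a difference with age. With the medians set to 1, the 99th percentile was 94.1 to 105 units on 180-day arrays and 53.4 to 61.6 units on 90-day arrays.

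The promoter windows of Slc25a39 and Slc25a1 are shown because these carriers had the smallest p between LY and black mice at 180 and at 90 days. Each runs from 250 bases before to 50 bases after the transcription start in RefSeq (GRCm38.p6), on the minus strand at chr11:102407468-102407767 for Slc25a39 and chr16:17928170-17928469 for Slc25a1. Letters run 5′ to 3′ along the gene, and capitals mark matches on either strand to the CCAAT box (CCAAT), the GC box (GGGCGG) or the E-box (CACGTG).
Slc25a39: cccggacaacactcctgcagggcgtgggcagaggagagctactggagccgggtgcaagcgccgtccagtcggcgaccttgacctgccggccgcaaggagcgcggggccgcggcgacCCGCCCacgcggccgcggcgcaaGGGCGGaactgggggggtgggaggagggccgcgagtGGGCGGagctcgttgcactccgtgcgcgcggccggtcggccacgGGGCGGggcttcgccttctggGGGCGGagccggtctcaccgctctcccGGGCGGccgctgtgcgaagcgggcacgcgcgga
Slc25a1: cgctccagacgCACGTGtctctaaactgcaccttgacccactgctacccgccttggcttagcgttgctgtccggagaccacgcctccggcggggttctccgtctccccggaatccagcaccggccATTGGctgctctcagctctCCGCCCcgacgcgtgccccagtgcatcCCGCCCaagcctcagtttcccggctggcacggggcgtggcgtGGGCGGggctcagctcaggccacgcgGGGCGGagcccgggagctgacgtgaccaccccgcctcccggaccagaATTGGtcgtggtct
The Slc25a39 window held 6 GC boxes and neither of the other motifs, and the Slc25a1 window held 2 CCAAT boxes, 4 GC boxes and 1 E-box, none of them overlapping. A sterol response element (TCACNCCAC) was also searched for and matched neither window. Of all 32851 promoter windows of this length, 37.4% held a CCAAT box, 35.7% a GC box, 7.15% an E-box and 1.24% the sterol response element. RefSeq gave 46 windows for 36 of the carriers, and 21 of these held a CCAAT box, 37 a GC box, 7 an E-box and 1 the sterol response element. A match describes letters only.

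No carrier passed the test between LY and black mice at either age. At 180 days 0 of 43 carriers had an adjusted p under 0.05 (limma with Benjamini-Hochberg adjustment over 31359 probes), where 0.0446% of all probes did, and at 90 days the count was again 0 of 43 against 0.0446% of probes. At an unadjusted p under 0.05 there were 5 carriers at 180 days (12% of probes, 7.05% higher and 4.91% lower), with Slc25a1, Slc25a39 and Slc25a51 higher and Slc25a2 and Slc25a30 lower in LY mice. At 90 days 5 carriers reached that level (13.3% of probes, 5.21% higher and 8.06% lower), with Slc25a48 higher and Slc25a1, Slc25a18, Slc25a23 and Slc25a39 lower in LY mice. Both shares of carriers were near those of all probes. Slc25a2, Slc25a30 and Slc25a48 had arrays under the limit of sensitivity in these comparisons. The methods' t-test gave 4 carriers at 180 days (13.4% of probes) and 2 at 90 days (8.92% of probes) at an unadjusted p under 0.05, and 0 after Benjamini-Hochberg adjustment at either age.

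The estimates of the carriers were more often above 0 at 180 days than at 90 days. Of the 43 carriers 27 had an estimate above 0 (higher in LY mice) at 180 days, where 55.9% of probes did, and 11 at 90 days, where 49.1% of probes did. Their median log2 difference was 0.055 at 180 days and -0.066 at 90 days, beside 0.029 and -0.0039 over all probes. An estimate above 0 at 180 days together with one below 0 at 90 days was found for 21 carriers (27.8% of probes). With each array divided by its 75th percentile in place of its median, the carriers with an estimate above 0 at 90 days became 21 of 43 (61.2% of probes) and their median -0.0042, and with quantile normalization they became 19 of 43 (53.9% of probes), so this count depended on the scaling. For the difference of the genotype effect between the ages (the interaction) 0 of 43 carriers passed the test, as did 0% of all probes, and 6 carriers had an unadjusted p under 0.05 (12.1% of probes). When the ages were averaged, 0 of 43 passed (0.00638% of probes), and Slc25a30 alone had an unadjusted p under 0.05 (13% of probes).

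**Figure D1:**
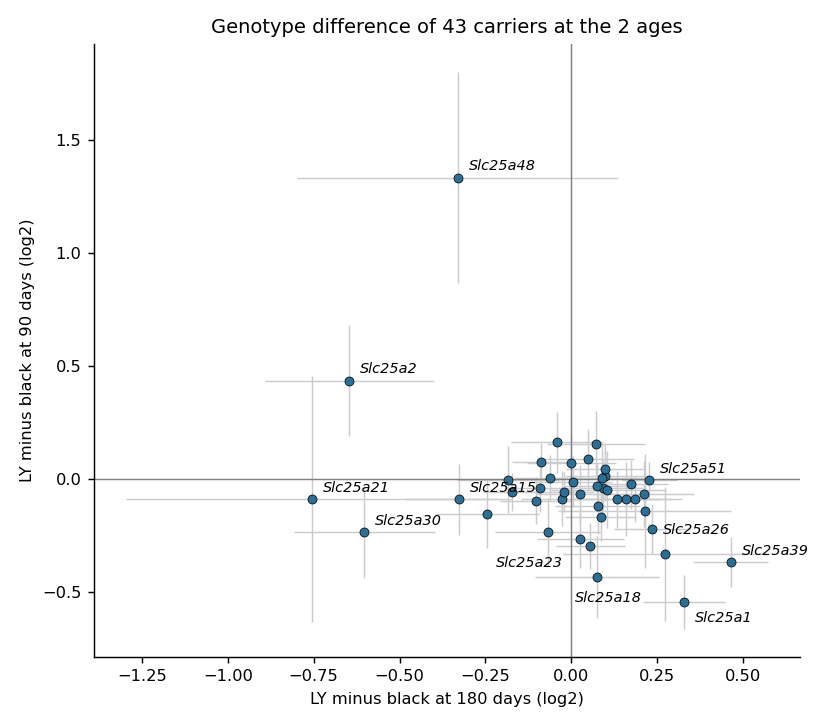
Log2 difference of LY minus black mice at 180 days (horizontal) and at 90 days (vertical) for the 43 tested carriers, with bars of 1 SE. Slc25a1, Slc25a39 and Slc25a26 lie to the lower right, at 0.33 and -0.54, 0.46 and -0.37, and 0.23 and -0.22, while the far points Slc25a48, Slc25a2 and Slc25a21 are dim probes near the limit of sensitivity. Slc25a30, to the left, is near that limit on the 180-day arrays.

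At 180 days the LY arrays did not overlap the black arrays for 9 carriers (22.6% of probes, 14.3% higher and 8.37% lower), of which Slc25a1, Slc25a5, Slc25a26, Slc25a37, Slc25a39 and Slc25a51 were higher and Slc25a30, Slc25a47 and Ucp3 lower in LY mice. At 90 days the groups did not overlap for 7 carriers (16.6% of probes, 6.92% higher and 9.66% lower), with Slc25a2 and Slc25a48 higher and Slc25a1, Slc25a23, Slc25a25, Slc25a26 and Slc25a39 lower in LY mice. The closest 90-day LY and black arrays had 0.1649 and 0.1647 units for Slc25a2 and 0.130 and 0.0939 units for Slc25a48. These lay under the limit of sensitivity, as did the closest 180-day arrays for Slc25a30, so these separations are not resolved. Slc25a1, Slc25a26 and Slc25a39 were in both sets, with every LY array above the black arrays at 180 days and below them at 90 days, a pattern that 3 carriers and 1.83% of all probes showed. No carrier had groups apart in the same direction at both ages, where 1.96% of probes did.

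Between the ages, 31 of 43 carriers passed the test, 14 higher and 17 lower in 180-day mice, where 59.3% of all probes passed (33.8% higher and 25.4% lower). The carriers higher in 180-day mice included Slc25a43, Slc25a23 and Slc25a18, and those lower included Slc25a30, Slc25a10, Slc25a31, Slc25a26 and Slc25a46. A log2 difference of at least 1 in size was found for 4 carriers, Slc25a10, Slc25a30, Slc25a31 and Slc25a43, and for 13.1% of probes. The 6 arrays of 180-day mice did not overlap the 6 arrays of 90-day mice for 19 carriers (36.7% of probes). The median difference of the carriers was 0.13 and that of all probes 0.06, and the first became -0.047 with quantile normalization and -0.0091 without 180-day LY replicate 3, so the carriers as a list had no settled direction with age. Of the 31 calls 23 were kept under every scaling and with every array left out in turn, and Slc25a4, Slc25a5, Slc25a15, Slc25a17, Slc25a24, Slc25a27, Slc25a34 and Slc25a47 were not.

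**Figure D2:**
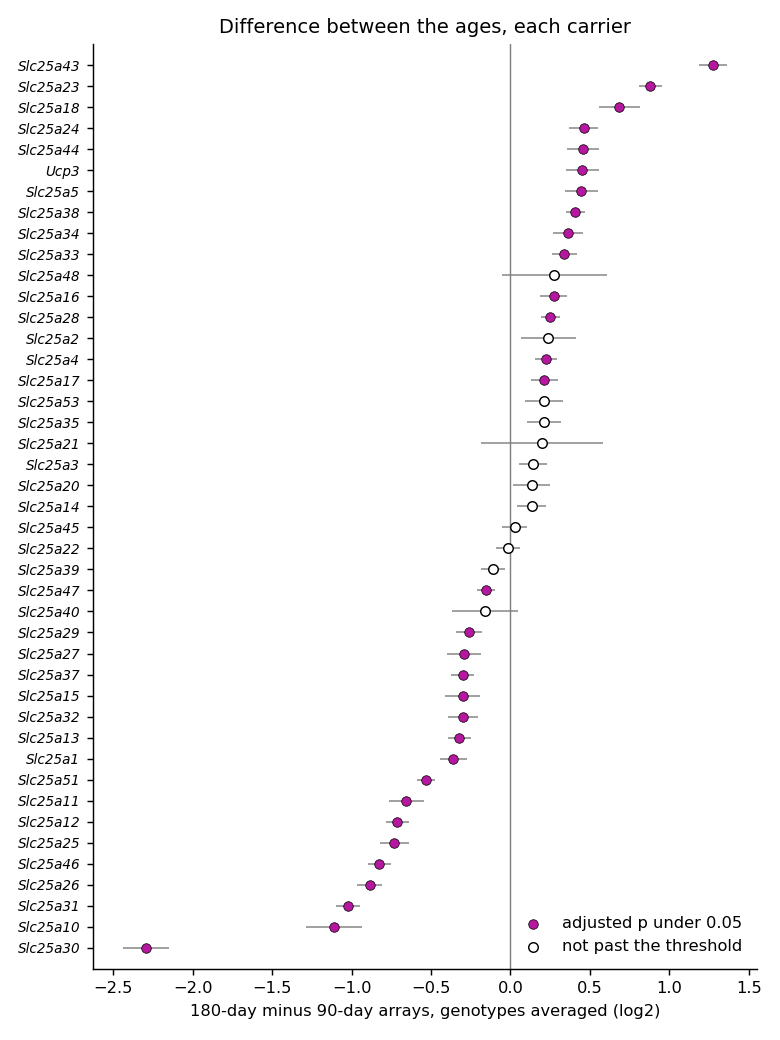
Log2 difference of 180-day minus 90-day mice, averaged over LY and black mice, for each of the 43 tested carriers, with bars of 1 SE and filled points for an adjusted p under 0.05. The points run from -2.30 for Slc25a30 to 1.27 for Slc25a43, with 14 filled points above 0 and 17 below.

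Among the carriers of di- and tricarboxylates, Slc25a1, the citrate carrier that supplies cytosolic acetyl-CoA, had estimates of opposite sign at the 2 ages that did not pass the test. Slc25a1 had 8.20, 8.05 and 10.0 units in LY mice and 6.68, 6.45 and 7.75 units in black mice at 180 days. At 90 days Slc25a1 had 7.40, 8.61 and 8.86 units in LY mice and 11.1, 12.4 and 12.7 units in black mice. The groups did not overlap at either age, and the 90-day black arrays were the highest of all 12. The log2 difference of LY minus black was 0.33 ± 0.12 at 180 days (SE, adjusted p = 0.324, limma) and -0.54 ± 0.12 at 90 days (adjusted p = 0.113, limma). The interaction was 0.87 ± 0.17 (95% interval 0.50 to 1.25, unadjusted p = 3.80e-04, adjusted p = 0.10, limma), and of the settings run it passed the threshold only when limma let the spread follow the intensity (adjusted p = 0.0343), with adjusted p-values of up to 0.311 in the others. Averaged over the genotypes, Slc25a1 was lower in 180-day than in 90-day mice (log2 difference -0.36, adjusted p = 0.00389, limma), which joins a log2 difference of 0.08 in LY mice and one of -0.80 in black mice.

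The dicarboxylate carrier Slc25a10, which exchanges malate and succinate for phosphate, was lower in 180-day than in 90-day mice in both genotypes. It had 0.882, 0.919 and 1.92 units in 180-day LY mice and 2.09, 2.42 and 2.14 units in 90-day LY mice. In black mice Slc25a10 had 1.05, 1.02 and 0.930 units at 180 days and 2.06, 2.67 and 2.65 units at 90 days. The 180-day LY replicate with 1.92 units stood above the other 180-day arrays and still below the 90-day ones. The age difference was -1.11 ± 0.18 (adjusted p = 3.14e-04, limma). Slc25a11, the oxoglutarate/malate carrier of the malate-aspartate shuttle, averaged 4.96 ± 0.643 units in LY and 5.21 ± 0.752 units in black mice at 180 days, and 7.33 ± 0.183 units in LY and 8.74 ± 1.54 units in black mice at 90 days (SD, n = 3 each). It too was lower in 180-day mice (log2 difference -0.66, adjusted p = 3.98e-04, limma), with no overlap of the ages. Slc25a21, the oxodicarboxylate carrier, was dim, with 0.0512, 0.146 and 0.241 units in 180-day LY mice and 0.198, 0.156 and 0.280 units in 180-day black mice. Its 90-day arrays had 0.120, 0.189 and 0.104 units in LY mice and 0.210, 0.0774 and 0.176 units in black mice. It reached the limit of sensitivity on 3 of 12 arrays, and no difference was detectable at these levels.

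Slc25a39, a carrier that brings glutathione into mitochondria, showed the same order of groups within each age as Slc25a1. It had 18.3, 22.1 and 23.6 units in LY mice and 16.2, 14.8 and 15.3 units in black mice at 180 days. At 90 days Slc25a39 had 15.6, 17.9 and 18.1 units in LY mice and 22.5, 20.9 and 23.2 units in black mice. Every LY array lay above the black arrays at 180 days and below them at 90 days. The log2 difference was 0.46 ± 0.11 at 180 days (SE, unadjusted p = 0.00149, adjusted p = 0.159, limma), the smallest p of the 43 carriers at that age, and -0.37 ± 0.11 at 90 days (adjusted p = 0.204, limma). Its interaction of 0.83 ± 0.15 (95% interval 0.49 to 1.17, unadjusted p = 2.54e-04, adjusted p = 0.0948, limma) missed the threshold, and of the settings run it passed only with the intensity trend (adjusted p = 0.0277), with adjusted p-values of up to 0.317 in the others. Between the ages Slc25a39 did not pass the test (-0.11 ± 0.08, adjusted p = 0.244, limma). Slc25a40, its close relative, lay between 0.146 and 0.338 units over the 12 arrays and passed no test.

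**Figure D3:**
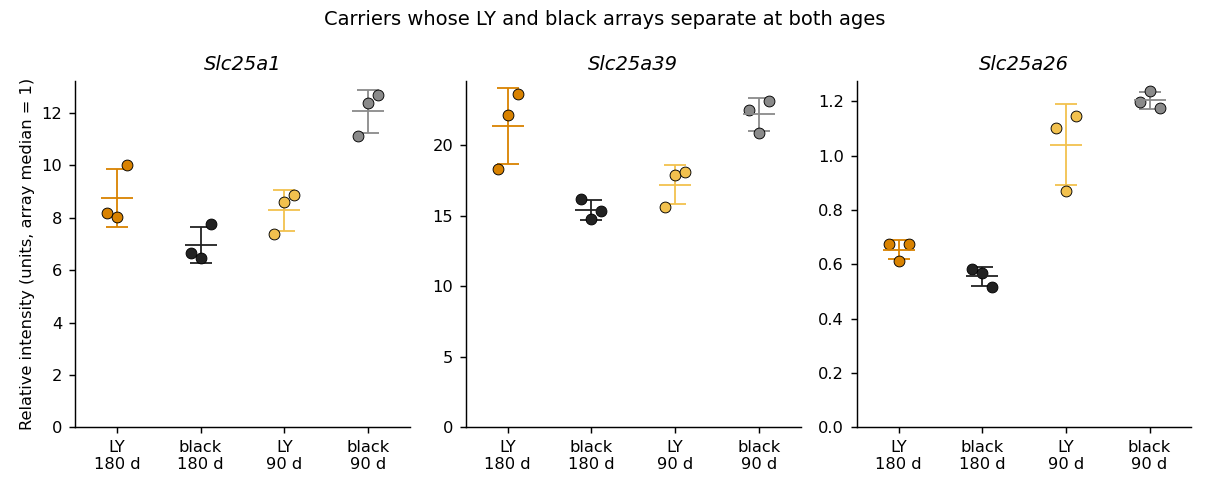
Relative intensity on each array (points), with the mean and SD (bars), of Slc25a1, Slc25a39 and Slc25a26 in LY and black mice at 180 and 90 days, each axis starting at 0. In every panel the 3 LY arrays lie above the 3 black arrays at 180 days and below them at 90 days.

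The carriers of iron and of glycine for heme passed the test between the ages and not between the genotypes. Slc25a37 (mitoferrin 1), which imports iron, had 4.13, 3.96 and 4.17 units in LY mice and 3.88, 3.30 and 3.62 units in black mice at 180 days. At 90 days Slc25a37 had 4.33, 4.66 and 4.75 units in LY mice and 4.26, 5.01 and 5.40 units in black mice. The LY arrays lay above the black arrays at 180 days, by a log2 difference of 0.18 ± 0.10 (SE) that did not pass the test (adjusted p = 0.514, limma). Slc25a37 was lower and Slc25a28 (mitoferrin 2) higher in 180-day mice, with age differences of -0.30 and 0.25 (adjusted p = 0.00452 and 0.00483, limma). Slc25a38, the glycine importer for the first step of heme synthesis, averaged 21.4 ± 1.75 units in LY and 22.7 ± 0.962 units in black mice at 180 days, and 17.0 ± 0.308 units in LY and 16.2 ± 0.975 units in black mice at 90 days (SD, n = 3 each). It was higher in 180-day mice by 0.41 (adjusted p = 2.01e-04, limma), and its second probe was higher as well (0.38, adjusted p = 0.00108, limma).

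Among the carriers of coenzymes, Slc25a26, which imports S-adenosylmethionine for methylation in the matrix, had 0.677, 0.614 and 0.674 units in LY mice and 0.585, 0.568 and 0.518 units in black mice at 180 days. At 90 days Slc25a26 had 1.10, 0.871 and 1.15 units in LY mice and 1.20, 1.24 and 1.18 units in black mice. It was the third carrier with LY arrays all above the black arrays at 180 days and all below them at 90 days, but the differences were small, at 0.23 ± 0.11 and -0.22 ± 0.11 (SE), and the interaction of 0.46 ± 0.16 did not pass the test (adjusted p = 0.268, limma). Slc25a26 was lower in 180-day mice (log2 difference -0.89, adjusted p = 3.74e-06, limma). Slc25a51, the NAD+ carrier, had 9.71, 9.75 and 10.4 units in LY mice and 8.19, 8.80 and 8.51 units in black mice at 180 days. At 90 days Slc25a51 had 13.6, 12.6 and 13.7 units in LY mice and 13.1, 12.7 and 14.3 units in black mice. The 180-day LY arrays lay above the black arrays by 0.23 ± 0.08 (SE, adjusted p = 0.307, limma), and at 90 days the groups overlapped. Slc25a51 was lower in 180-day mice (log2 difference -0.53, adjusted p = 1.50e-05, limma), and its second probe was lower as well, at -1.03 (adjusted p = 2.88e-05, limma).

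The ADP/ATP carriers, which exchange the ATP made in the matrix for cytosolic ADP, did not pass the test between the genotypes at either age. Slc25a5 had 133, 137 and 136 units in LY mice and 123.2, 127 and 102 units in black mice at 180 days. At 90 days Slc25a5 had 84.5, 93.8 and 92.5 units in LY mice and 87.0, 121 and 80.2 units in black mice. Its LY arrays lay above the black arrays at 180 days only, by 0.21 ± 0.15 (SE, adjusted p = 0.601, limma), and 90-day black replicate 2 stood above the other 90-day arrays. Slc25a4 averaged 96.9 ± 4.11 units in LY and 92.1 ± 4.55 units in black mice at 180 days, and 80.2 ± 6.31 units in LY and 82.1 ± 8.02 units in black mice at 90 days (SD, n = 3 each). Both were higher in 180-day mice, Slc25a5 by 0.45 and Slc25a4 by 0.22 (adjusted p = 0.00342 and 0.0168, limma), calls that did not hold under every scaling. Slc25a31, the isoform known from the germ line, had 1.09, 1.12 and 1.31 units in LY mice and 1.15, 1.29 and 1.30 units in black mice at 180 days. At 90 days Slc25a31 had 2.18, 2.57 and 2.52 units in LY mice and 2.38, 2.39 and 2.69 units in black mice. It ran the other way, lower in 180-day mice (log2 difference -1.02, adjusted p = 1.04e-06, limma), with LY and black arrays overlapping at both ages.

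Slc25a3, the phosphate carrier that feeds ATP synthase, averaged 109 ± 14.5 units in LY and 99.8 ± 15.7 units in black mice at 180 days, and 91.2 ± 2.64 units in LY and 97.2 ± 4.08 units in black mice at 90 days (SD, n = 3 each). It passed neither the genotype tests nor the age test (0.14 ± 0.09, adjusted p = 0.195, limma). Of the calcium-regulated ATP-Mg/phosphate carriers, Slc25a23 had 12.4, 11.6 and 11.8 units in LY mice and 11.9, 11.0 and 11.5 units in black mice at 180 days. At 90 days Slc25a23 had 5.25, 5.64 and 6.36 units in LY mice and 7.87, 6.89 and 6.41 units in black mice. The 90-day LY arrays all lay below the black ones (log2 difference -0.30 ± 0.10, SE, adjusted p = 0.255, limma), and the 180-day arrays of the genotypes overlapped. Slc25a23 was higher in 180-day mice by 0.88 (adjusted p = 2.11e-06, limma). Its second, dimmer probe showed an age difference of 0.09 (adjusted p = 0.471, limma), so the difference rests on 1 of 2 probes. Slc25a24 was also higher and Slc25a25 lower in 180-day mice, at 0.46 and -0.73 (adjusted p = 0.00125 and 4.61e-05, limma).

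The aspartate/glutamate carriers Slc25a12 and Slc25a13, which complete the malate-aspartate shuttle, were both lower in 180-day mice. Slc25a12 averaged 2.61 ± 0.139 units in LY and 2.81 ± 0.376 units in black mice at 180 days, and 4.28 ± 0.181 units in LY and 4.58 ± 0.310 units in black mice at 90 days (SD, n = 3 each). Its age difference was -0.71 (adjusted p = 1.37e-05, limma), while its second probe gave 0.19 (adjusted p = 0.192, limma). Slc25a13 averaged 4.30 ± 0.163 units in LY and 4.50 ± 0.406 units in black mice at 180 days, and 5.52 ± 0.491 units in LY and 5.49 ± 0.379 units in black mice at 90 days (SD, n = 3 each), an age difference of -0.32 (adjusted p = 0.00270, limma). The glutamate carrier Slc25a18 went the other way and had 3.17, 4.41 and 2.96 units in LY mice and 3.59, 3.29 and 3.01 units in black mice at 180 days. At 90 days Slc25a18 had 2.24, 1.73 and 1.52 units in LY mice and 2.62, 2.60 and 2.12 units in black mice. It was higher in 180-day mice by 0.69 (adjusted p = 8.72e-04, limma), and its genotype difference at 90 days was -0.43 ± 0.18 (SE, adjusted p = 0.343, limma), with 1 LY array inside the range of the black arrays. Slc25a22, the other glutamate carrier, lay between 9.30 and 12.7 units on the 12 arrays and did not pass the age test (-0.02 ± 0.08, adjusted p = 0.865, limma).

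Of the ornithine carriers, which serve the urea cycle in liver, Slc25a15 had 0.265, 0.217 and 0.296 units in LY mice and 0.285, 0.379 and 0.311 units in black mice at 180 days. At 90 days Slc25a15 had 0.409, 0.302 and 0.330 units in LY mice and 0.384, 0.334 and 0.383 units in black mice. The groups overlapped at both ages, and the 180-day difference of -0.33 ± 0.16 did not pass the test (SE, adjusted p = 0.444, limma). Slc25a2 lay at the limit of sensitivity, with 0.162, 0.117 and 0.240 units in LY mice and 0.237, 0.263 and 0.281 units in black mice at 180 days. At 90 days Slc25a2 had 0.165, 0.274 and 0.189 units in LY mice and 0.140, 0.150 and 0.165 units in black mice. At 90 days 2 of the 3 LY arrays and all 3 of the black arrays were under 0.2 units, so no fold is given for that age (adjusted p = 0.484, limma). At 180 days 2 of the 3 LY arrays were under 0.2 units, and the fitted difference of -0.65 ± 0.25 did not pass the test (SE, adjusted p = 0.342, limma). It ran from -0.78 to -0.29 over the settings and from -0.91 to -0.40 with 1 array left out. Slc25a20, the carnitine-acylcarnitine carrier that brings fatty acids to oxidation, averaged 2.97 ± 0.508 units in LY and 2.64 ± 0.288 units in black mice at 180 days, and 2.48 ± 0.398 units in LY and 2.63 ± 0.288 units in black mice at 90 days (SD, n = 3 each). It passed none of the tests, and its age difference of 0.13 had a 95% interval of -0.12 to 0.39.

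The uncoupling proteins and their near relatives held the largest age difference of the carriers. Slc25a30, a carrier described in mouse kidney, had 0.179, 0.163 and 0.141 units in 180-day LY mice and 0.765, 0.831 and 1.13 units in 90-day LY mice. In black mice Slc25a30 had 0.186, 0.266 and 0.293 units at 180 days and 0.964, 0.945 and 1.28 units at 90 days. Every 180-day array lay below every 90-day array, and all 3 of the 180-day LY arrays were under the limit of sensitivity. Slc25a30 was at least 4.47-fold lower in 180-day than in 90-day LY mice, counting the dim arrays at 0.2 units, and the fitted age difference was -2.30 ± 0.14 (adjusted p = 3.27e-07, limma). The LY arrays also lay below the black arrays at 180 days (adjusted p = 0.297, limma). The closest of them, at 0.179 units in LY and 0.186 units in black mice, were both under the limit, so no fold is given. The genotype difference averaged over the ages was -0.42 ± 0.14 (SE, adjusted p = 0.275, limma), which includes these dim 180-day arrays. It ran from -0.43 to -0.28 over the settings and from -0.52 to -0.35 with 1 array left out.

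Ucp1 was dim, with 0.0711, 0.129 and 0.0613 units in LY mice and 0.153, 0.207 and 0.0407 units in black mice at 180 days. At 90 days Ucp1 had 0.0820, 0.118 and 0.111 units in LY mice and 0.0196, 0.0396 and 0.0308 units in black mice. It exceeded 0.2 units on 1 of 12 arrays, so no difference was tested. Ucp3, known from skeletal muscle, had 0.262, 0.234 and 0.255 units in LY mice and 0.306, 0.271 and 0.275 units in black mice at 180 days. At 90 days Ucp3 had 0.181, 0.202 and 0.201 units in LY mice and 0.20, 0.243 and 0.153 units in black mice. The LY arrays lay below the black arrays at 180 days (log2 difference -0.18 ± 0.15, SE, adjusted p = 0.662, limma), and 180-day mice were higher by 0.45 (adjusted p = 0.00344, limma) at levels near the limit. Brown adipocyte markers, 5 in number, summed to 3.76 to 4.08 units in LY mice and 3.27 to 3.37 units in black mice at 180 days, and to 3.90 to 4.67 units in LY mice and 3.41 to 4.57 units in black mice at 90 days. Most of these sums came from Dio2, Ppara and Elovl3. Cidea averaged 0.129 units in LY and 0.177 units in black mice at 180 days, and 0.301 and 0.426 units at 90 days. Otop1 was over the limit only on 90-day black replicate 2, at 0.753 units. Slc25a14 did not pass the age test (0.13 ± 0.09, adjusted p = 0.237, limma). For Slc25a27 the 2 probes passed it in opposite directions, with -0.29 for the brighter and 1.00 for the dimmer probe (adjusted p = 0.0379 and 1.00e-03, limma), so no direction is given.

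Of the carriers with no substrate assigned here, Slc25a43 had 1.38, 1.82 and 1.73 units in 180-day LY mice and 0.591, 0.616 and 0.685 units in 90-day LY mice. In black mice Slc25a43 had 1.45, 1.57 and 1.61 units at 180 days and 0.639, 0.778 and 0.644 units at 90 days. The ages did not overlap, and the difference of 1.27 ± 0.09 (adjusted p = 6.39e-07, limma), or 2.42-fold, was the largest among carriers higher in 180-day mice. Slc25a46, an outer membrane protein of mitochondrial fusion and fission, had 7.71, 7.61 and 8.14 units in 180-day LY mice and 12.1, 13.2 and 12.8 units in 90-day LY mice. In black mice Slc25a46 had 7.79, 7.02 and 7.32 units at 180 days and 12.9, 16.8 and 13.4 units at 90 days. It was lower in 180-day mice (log2 difference -0.83, adjusted p = 4.23e-06, limma), again with no overlap of the ages.

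**Figure D4:**
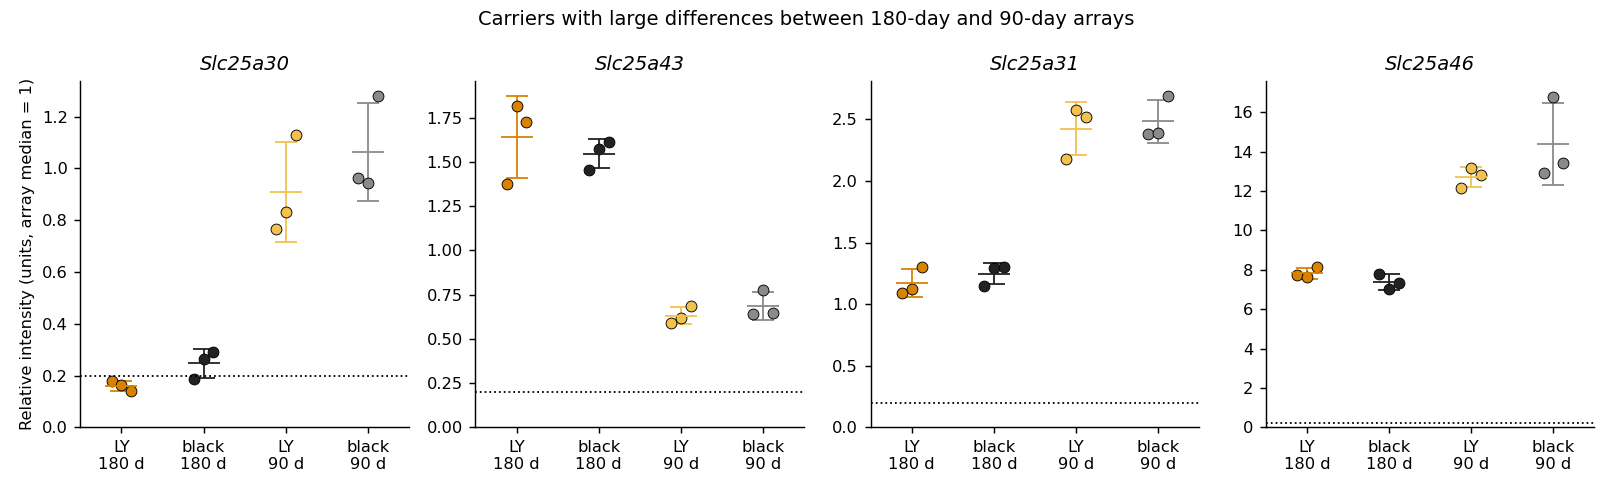
Relative intensity on each array (points), with the mean and SD (bars), of Slc25a30, Slc25a43, Slc25a31 and Slc25a46, each axis starting at 0 and the dotted line at the 0.2-unit limit of sensitivity. The 180-day arrays lie below the 90-day arrays for Slc25a30, Slc25a31 and Slc25a46 and above them for Slc25a43, in LY and in black mice.

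Slc25a47, a liver carrier in the mouse, had 2.13, 1.93 and 2.10 units in LY mice and 2.39, 2.21 and 2.33 units in black mice at 180 days. At 90 days Slc25a47 had 2.33, 2.28 and 2.51 units in LY mice and 2.36, 2.64 and 2.42 units in black mice. The LY arrays lay below the black arrays at 180 days (log2 difference -0.17 ± 0.08, SE, adjusted p = 0.445, limma), and its 2 probes gave age differences of opposite sign (-0.15 and 0.39, adjusted p = 0.0416 and 0.0475, limma). Slc25a48 was dim, with 0.0989, 0.221 and 0.111 units in LY mice and 0.20, 0.161 and 0.150 units in black mice at 180 days. At 90 days Slc25a48 had 0.450, 0.130 and 0.131 units in LY mice and 0.0939, 0.0921 and 0.0558 units in black mice. Of the 90-day arrays 90-day LY replicate 1 alone was over the limit, and the fitted difference of 1.33 ± 0.47 (SE, adjusted p = 0.265, limma) became 0.74 without that replicate, so no fold is given.

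The carriers not yet described followed no common direction with age. Slc25a16 and Slc25a17, which are linked to coenzyme A in mitochondria and peroxisomes, the pyrimidine nucleotide carrier Slc25a33, the branched-chain amino acid carrier Slc25a44 and Slc25a34 were higher in 180-day mice, at 0.27, 0.21, 0.34, 0.46 and 0.36 (adjusted p = 0.00274 to 0.0475, limma). The second probe of Slc25a33 gave 0.13 and did not pass the test (adjusted p = 0.140, limma). Slc25a29, which carries basic amino acids, and Slc25a32, the folate and FAD carrier, were lower, at -0.26 and -0.30 (adjusted p = 0.0172 and 0.0189, limma). Slc25a35, Slc25a45 and Slc25a53 did not pass the test (0.03 to 0.21), though the second, dimmer probe of Slc25a53 did (1.35, adjusted p = 5.53e-06, limma). Slc25a42, a coenzyme A carrier, lay between 0.0348 and 0.220 units on the 12 arrays and was not tested.

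Genes that handle the carried metabolites had estimates of the same signs as Slc25a1 and Slc25a39 in most lists. Of 7 measured partners of citrate export 1 passed the test at 180 days, Me1 (malic enzyme, which makes cytosolic NADPH), and 0 passed at 90 days. At each age 0.0446% of all probes passed. Estimates of the partners were above 0 for 7 of 7 at 180 days (55.9% of all probes) and 0 of 7 at 90 days (49.1%). Their medians were 0.38 and -0.23. Me1 had 98.5, 113 and 126 units in LY mice and 62.2, 54.8 and 60.6 units in black mice at 180 days, a log2 difference of 0.92 (adjusted p = 0.0348, limma), and its interaction of 1.19 did not pass (adjusted p = 0.0704, limma). Citrate synthase (Cs) had a difference of 0.38 at 180 days (adjusted p = 0.252, limma). No gene of the other companion lists passed the test at either age. The median differences at 180 and at 90 days were 0.27 and -0.21 for 4 malate-aspartate shuttle enzymes, 0.18 and -0.26 for 6 carnitine shuttle enzymes, 0.22 and -0.11 for 14 ATP synthase subunits, 0.19 and -0.23 for 9 genes of other mitochondrial membrane transport, 0.11 and -0.08 for 9 genes of heme and iron-sulfur synthesis, and -0.02 and -0.07 for 8 regulators of mitochondrial biogenesis. Among the smallest p-values of these lists at 180 days were those of Atp5g1 (a membrane subunit of ATP synthase, 0.55, adjusted p = 0.0830, limma), Tfrc (the transferrin receptor, 0.55, adjusted p = 0.0952, limma) and Tspo (an outer membrane protein, 0.58, adjusted p = 0.133, limma). Over all probes the medians were 0.029 and -0.0039. None of these list medians changed sign with quantile normalization, 75th percentile scaling or the values as deposited, although with quantile normalization the citrate export partners above 0 became 6 of 7 at 180 days and 2 of 7 at 90 days, and the ATP synthase medians became 0.069 and -0.025.

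Among the markers of ovarian cell types none passed the test between the genotypes, where 0.0446% of all probes did at each age. Over all probes 55.9% of estimates were above 0 at 180 days and 49.1% at 90 days. At 180 days 1 of 7 granulosa cell markers had an estimate above 0 (median -0.41), with a summed level of 172 to 229 units in LY mice and 237 to 317 units in black mice, and at 90 days 6 of 7 did (median 0.25), with 267 to 391 units in LY mice and 269.8 to 362 units in black mice. Of 8 oocyte markers 1 was above 0 at 180 days (median -0.50, 40.6 to 59.8 units in LY mice and 60.9 to 81.4 units in black mice) and 7 at 90 days (median 0.07, 61.9 to 64.8 units in LY mice and 53.2 to 71.7 units in black mice). All 3 theca cell markers were above 0 at 180 days (median 0.49, 229 to 369 units in LY mice and 184 to 241 units in black mice), led by Star (0.91, adjusted p = 0.168, limma), and 1 of 3 at 90 days (median -0.37, 283 to 302 units in LY mice and 232 to 375 units in black mice). The ranges of the granulosa and oocyte sums did not overlap between the genotypes at 180 days, while those of the theca sums did. At that age the groups did not overlap for 22.6% of all probes. The part of these cell types in the differences of the carriers was not tested. White adipocyte markers summed to 25.1 to 27.2 units in LY mice and 19.7 to 44.2 units in black mice at 180 days, and to 9.78 to 41.0 units in LY mice and 13.6 to 66.8 units in black mice at 90 days, with no marker under the limit on all arrays. Of these 5 markers 3 had estimates above 0 at 180 days and 1 at 90 days. Leptin (Lep), dim within the sum, had 0.310, 0.223 and 0.442 units in LY mice at 180 days. The black mice of that age had 0.00189, 0.0677 and 0.0800 units, all under the limit (adjusted p = 0.307, limma). Between the ages 5 of 7 granulosa cell markers passed the test as lower and 1 as higher in 180-day mice, 3 of 8 oocyte markers as lower and 3 of 3 macrophage and leukocyte markers as higher, where 25.4% of all probes were lower and 33.8% higher. The macrophage and leukocyte markers had sums of 29.6 to 55.4 units in LY and 35.0 to 55.4 units in black mice at 180 days, and 20.4 to 31.8 units in LY and 18.7 to 29.9 units in black mice at 90 days. The part of any of these cell types in the age differences of the carriers was not tested. The other lists at 180 and 90 days had medians of -0.34 and -0.11 (skeletal muscle, 4 tested genes), 0.46 and 0.19 (adrenal cortex, 3 tested genes), and -0.40 and -0.62 (oviduct epithelium, 2 tested genes). Of the 2 oviduct genes 1 was above 0 at 180 days and 0 at 90 days. The sums of these lists were at most 1.65, 0.996 and 5.93 units on any array.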

How the data were processed

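Whole-ovary RNA was hybridized to one-colour CodeLink arrays, 1 array per mouse and 3 per group, and samples were grouped by their labels. The deposited values are intensity units, which the authors corrected for background with the CodeLink software and scaled in GeneSpring to the 50th percentile of each slide, leaving array medians of 1.00 (180 days) and 1.04 (90 days). Between 166 and 503 values per array were missing. Here every array's values were divided by their median, raised to 0.01 units where lower, and put on the log2 scale, so differences of dim probes depend on this floor. The 31359 probes whose mean reached 0.2 units in 1 or more groups were fitted with limma 3.58.1 in R 4.3.3 (4 group means, all 12 arrays, residual degrees of freedom 8), adjusted by Benjamini-Hochberg, with a threshold of 0.05. Probe names came from the platform annotation (21615 probes with 1 gene, 681 with several, 13931 with none), and 2 probes that name a carrier beside another gene were not used. Against a group with no array at 0.2 units, a fold is a bound, the bright group's mean log2 value against the dim arrays set to 0.2. The carriers named with all their values were up to 8 by smallest p at 180 days, 5 at 90 days, 4 for the interaction, 4 for the averaged genotypes and 6 for age, the 3 with the highest and the 3 with the lowest mean level, and 13 measured carriers fixed by role. Other lists were named by up to 2 genes each. Members, lists and rule were chosen with earlier results of these data known. With 3 mice against 3, an exact permutation test cannot go below p = 0.1, so none is given for single genes. The procedure was tested on simulated data. Alternatives covered scaling, floor, pseudocount, filter, variance model, array weights, the arrays of 1 age alone, a replicate block, the t-test of the methods, the mean of a gene's probes, and leaving out each array.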

Additional observations from a re-analysis of the deposited data

Results flagged for a closer look

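Slc25a1, Slc25a26 and Slc25a39 were singled out because every LY array lay above every black array at 180 days and below every black array at 90 days. The difference of the genotype effect between the ages was 0.87 on the log2 scale for Slc25a1, 0.46 for Slc25a26 and 0.83 for Slc25a39, and limma's test of this difference gave adjusted p-values of 0.10, 0.268 and 0.0948, none past the threshold. The same order of arrays was found for 1.83% of all probes.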

How the results depend on the processing

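With 3 mice a group and 1 array per mouse, the number of arrays limits the precision, and carriers near 0.2 units (Slc25a2, Slc25a21, Slc25a30, Slc25a48) have differences that depend on the floor. Of the values tracked for the carriers none turned its direction while passing the test. The count of 0 carriers between LY and black mice became 4 at 180 days and 2 at 90 days with the unadjusted t-test of the methods (13.4 and 8.92% of all probes), and the count for the interaction became 2 with limma's intensity trend (Slc25a1 and Slc25a39, with 198 probes or 0.631% of all). The count of 31 carriers between the ages ranged from 25 to 31 over the settings and from 27 to 29 with 1 array left out. The median of the carriers at 90 days became -0.0042 with 75th percentile scaling. The median of the interaction (0.08) became -0.022 with quantile normalization and 0.030 with 75th percentile scaling. The median between the ages (0.13) became -0.047 with quantile normalization, 0.078 with the values as deposited, 0.026 with a floor of 0.2 units, 0.0048 with the filter in all 4 groups (38 carriers left) and 0.087 with array weights, and ranged from -0.0091 to 0.15 with 1 array left out, lowest without 180-day LY replicate 3. The causes were not tested. It was not settled whether replicate numbers pair the samples. Deviations of same-numbered LY and black mice correlated at -0.0049, -0.069 and -0.055 at 180 days and at 0.148, 0.073 and 0.052 at 90 days. Those of differently numbered mice correlated at -0.0081 to 0.061 at 180 days and at -0.161 to 0.118 at 90 days. A replicate block left 0 carriers in each genotype comparison and 28 between the ages, and gave adjusted p-values of 0.311 and 0.317 for the interactions of Slc25a1 and Slc25a39.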

Other observations

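Of the 9 carriers with a second probe, Slc25a23, Slc25a24, Slc25a33, Slc25a38, Slc25a51 and Slc25a53 had age differences of one sign on both probes, while Slc25a12, Slc25a27 and Slc25a47 had opposite signs. Of the first set, the second probes of Slc25a23 and Slc25a33 and the main probe of Slc25a53 did not pass the test (adjusted p = 0.471, 0.140 and 0.153, limma). In the RefSeq gene order Slc25a29 and Slc25a47 are neighbours on chromosome 12, and Slc25a43 and Slc25a5 on the X chromosome. The age differences of the main probes were -0.26 and -0.15 for the pair on chromosome 12, and 1.27 and 0.45 for the pair on the X chromosome. The second probe of Slc25a47 gave 0.39, and the calls of Slc25a47 and Slc25a5 did not hold under every scaling.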
